A study of Mus musculus with 26 samples.

Results

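The genes described here make fat and sterol: enzymes of fatty acid synthesis, desaturation and elongation, of triglyceride assembly and of the sterol pathway, with the regulators that control them. They were chosen by name, as 35 gene symbols, and where a symbol had several transcripts the one with the highest summed count was kept. Of the 35, 32 were listed in at least 1 of the 2 deposited tables of brown fat counts, and Fads2, Idi1 and Lpin3 were listed in neither. The first table, called the knockout table here, listed 1189 genes, 9 of them members (Acly, Acacb, Fasn, Thrsp, Mlxipl, Agpat6, Dgat1, Hmgcs1 and Acat2). The second, called the IgG table, listed 9378 genes, 32 of them members, so 23 members were measured in the IgG table alone.

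The study sequenced RNA that came down with an antibody to IMP2, an RNA-binding protein encoded by Igf2bp2, together with the total RNA of the same tissue. All 12 brown fat libraries came from 10-week-old male mice on normal chow that were kept at 4 °C overnight. The background was C57Bl/6J, and Imp2-/- mice and their wild-type littermates were born to heterozygous parents. In the knockout table, libraries 16 and 17 held wild-type total RNA, 18 and 19 Imp2-/- total RNA, 21 and 22 wild-type IMP2 immunoprecipitates, and 23 and 24 immunoprecipitates made with the same antibody from Imp2-/- tissue, which by its label lacks the antibody's target. In the IgG table, libraries 15 and 20 held wild-type total RNA, 25 a wild-type IMP2 immunoprecipitate and 26 a wild-type immunoprecipitate made with control IgG. Each group had 1 or 2 libraries within a table. Whether they stand for different mice is not stated in the labels, and p-values here describe only the scatter among these libraries. The 14 liver samples of the series were not analysed here.

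Fatty acids are built in the cytosol from acetyl-CoA, which ATP citrate lyase (Acly) makes from citrate and acetyl-CoA carboxylase turns into malonyl-CoA for fatty acid synthase (Fasn). Stearoyl-CoA desaturases and elongases then modify the product, acyltransferases attach it to a glycerol backbone, and a branch from the same acetyl-CoA leads to sterols. In brown fat exposed to cold, fatty acids are burned for heat and the tissue is known to keep up its own fatty acid synthesis at the same time. The transcription factors SREBP-1 (Srebf1), SREBP-2 (Srebf2) and ChREBP (Mlxipl) drive these genes, with SCAP and INSIG controlling the release of the SREBPs from the endoplasmic reticulum.

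Over the named genes, with 1 transcript kept per symbol, the 8 knockout table libraries had summed counts of 780161 to 4915604. The 4 libraries with the IgG control had 1321361 to 3749075. Levels below are CPM, each count as a share of its library's scaled total (TMM scaling within a table), so they compare libraries of 1 table and not genes with each other, because transcript lengths enter them. Members took 3.83% to 7.90% of each library's summed count over these kept transcripts in the first table and 6.65% to 9.68% in the second. Brown fat was present by its markers: Ucp1, which encodes the uncoupling protein of heat production, lay between 5195 and 10862 CPM in the first and between 5308 and 6919 CPM in the second. Liver markers were listed in neither table. Skeletal muscle markers differed between libraries of 1 group: the 7 of 13 listed in the knockout table summed to 2444 and 9509 CPM in libraries 16 and 17, 522 and 2228 CPM in 18 and 19, 1281 and 5955 CPM in 21 and 22, and 283 and 1140 CPM in 23 and 24. Igf2bp2 was listed only in the IgG table, at 14.1 and 6.05 CPM in total RNA, 6.29 CPM in the IMP2 and 3.91 CPM in the IgG immunoprecipitate, so the loss of the target could not be checked in the knockout libraries.

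Within the knockout groups, libraries of the same group stood apart for 4 members. Fasn, which builds palmitate, read 28010 CPM in library 18 and 54745 CPM in library 19, and 21684 CPM in library 23 and 45529 CPM in library 24. Acly read 2357 and 4637 CPM in libraries 18 and 19, and 1423 and 2829 CPM in 23 and 24. Hmgcs1, which makes HMG-CoA for sterol synthesis, read 303 and 626 CPM in libraries 18 and 19, and 277 and 401 CPM in 23 and 24. Library 19 was the higher of its pair by 1.95-fold for Fasn, 1.97-fold for Acly and 2.06-fold for Hmgcs1. Thrsp, which encodes the lipogenic protein Spot 14, read 11197 and 16300 CPM in 18 and 19, and 12379 and 17698 CPM in 23 and 24. These 4 of the 9 members lay above the 95th percentile of all genes' ratios in both knockout pairs, a place that 5.05% of the 1189 genes take in each pair by construction. The share of all genes there in both pairs at once is not given here. Whether the immunoprecipitates share mice with the total RNA libraries is not stated, so the 2 pairs cannot be counted as independent. In library 24 against 23 the ratios were 2.1-fold for Fasn, 1.99-fold for Acly, 1.45-fold for Hmgcs1 and 1.43-fold for Thrsp.

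The remaining members were closer between the libraries of a knockout pair. Acacb, Agpat6 and Acat2 differed by 0.99-fold to 1.11-fold in both knockout pairs, Mlxipl by 1.29-fold in library 19 over 18 and 1.10-fold in 24 over 23, and Dgat1 by 0.796-fold and 0.958-fold. In the wild-type pairs the direction for Acly was the other way: it read 2532 and 1549 CPM in libraries 16 and 17 (0.612-fold) and 1599 and 891 CPM in 21 and 22 (0.557-fold), below the 5th percentile of all genes in both. Fasn differed less there, with 28470 and 26281 CPM in 16 and 17 and 23341 and 18608 CPM in 21 and 22. Thrsp read 12154 and 11550 CPM in libraries 16 and 17, and 12696 and 12028 CPM in 21 and 22. Dgat1 was 1.42-fold in library 17 over 16, above the 95th percentile of all genes, and 1.38-fold in 22 over 21, below it. The library with more muscle marker reads was the lower of its pair for Acly in the wild type and the higher in the knockout, and the part of muscle in these differences was not tested.

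**Figure D1:**
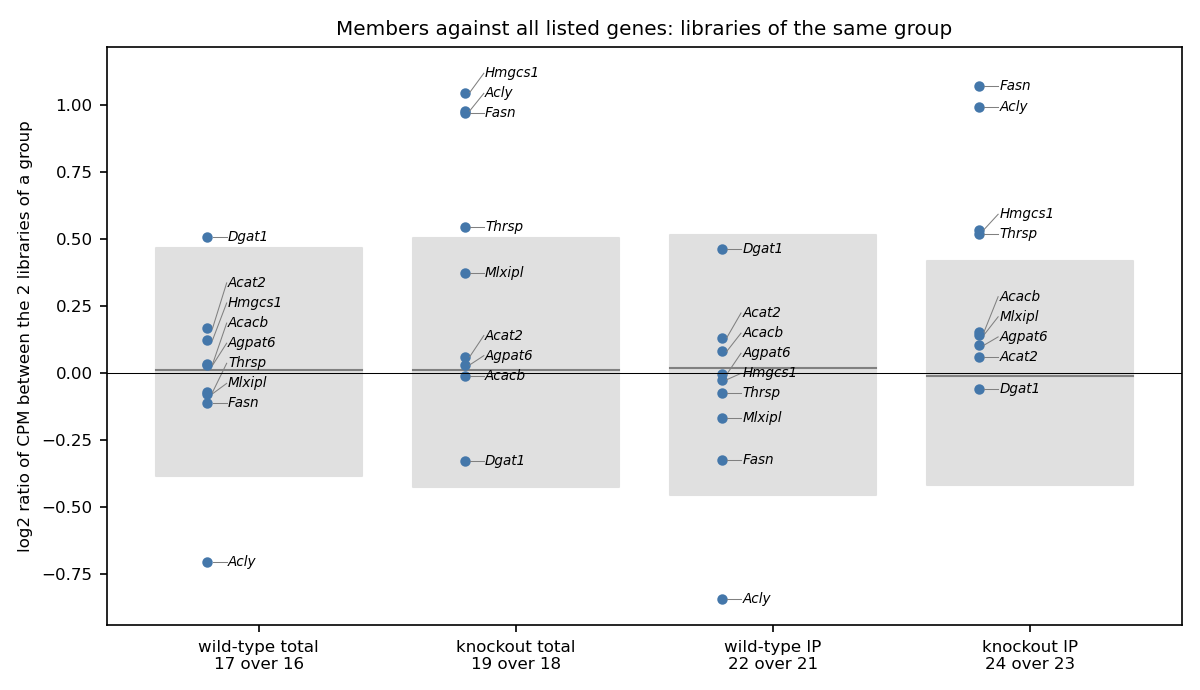
Log2 ratio of CPM between the 2 libraries of each group in the knockout table for the 9 members (points), with the 5th to 95th percentile of all 1189 genes (grey) and their median (line). Fasn, Acly, Hmgcs1 and Thrsp lie above the grey range in both knockout pairs, and Acly lies below it in both wild-type pairs. Dgat1 lies above it in library 17 over 16.

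Some of the genes that feed fatty acid synthesis differed between the same libraries. Of the 7 listed genes of carbon and NADPH supply and fatty acid synthesis outside the members, 3 lay above the 95th percentile in both knockout pairs, with the limits given above for these pairs. They were Slc25a1, the citrate carrier of the mitochondrial membrane, and the NADPH-producing enzymes Me1 and Pgd, while Tecr, Mcat and Mecr were at 1.002-fold, 1.13-fold and 0.869-fold in library 19 over 18. Me1 read 921 and 2187 CPM in libraries 18 and 19, and 941 and 1757 CPM in 23 and 24. Pgd read 629 and 1212 CPM in 18 and 19, and 697 and 1250 CPM in 23 and 24. Slc25a1 read 3217 and 5103 CPM in 18 and 19, and 2009 and 3952 CPM in 23 and 24. Gpd1, which makes glycerol 3-phosphate for triglycerides, was 1.52-fold higher in library 19 than in 18 and 1.53-fold higher in 24 than in 23, and was below the 5th percentile in both wild-type pairs. Sterol genes were mixed. Pmvk, a kinase of the mevalonate pathway, was higher in 19 and 24 (1.54-fold and 1.82-fold), whereas Fdft1, squalene synthase, was lower (0.512-fold and 0.490-fold). None of the 5 listed regulators lay outside the 5th to 95th percentile in either knockout pair. In each wild-type pair 2 of the 5 lay below the 5th percentile, as 5.05% of all genes do by construction. They were Prkag1 and Stk11 in library 17 over 16, and Usf2 and Stk11 in 22 over 21.

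The 4 members above the 95th percentile in both knockout pairs did not move together in every pair of libraries. In library 17 over 16, Acly was at 0.612-fold, Fasn 0.923-fold, Thrsp 0.950-fold and Hmgcs1 1.09-fold. In 22 over 21 all 4 were lower, from 0.557-fold (Acly) to 0.982-fold (Hmgcs1). In 20 over 15, Acly was at 2.27-fold, Fasn 1.63-fold, Thrsp 1.07-fold and Hmgcs1 0.562-fold. Whether these genes share regulation was not tested. The promoters of these 4 members were searched for short runs of bases. Each is the 250 bases before an annotated start, read 5′ to 3′ on the gene's strand from RefSeq's sequences for GRCm38.p6. Capitals mark the CCAAT box, which NF-Y binds (CCAAT on either strand), and 1 sterol regulatory element (TCACNCCAC on either strand). The windows lie at chr11:120824548-120824797 (Fasn, minus strand), chr11:100528001-100528250 (Acly, minus strand), chr7:97417551-97417800 (Thrsp, minus strand) and chr13:119690101-119690350 (Hmgcs1, plus strand).
Fasn: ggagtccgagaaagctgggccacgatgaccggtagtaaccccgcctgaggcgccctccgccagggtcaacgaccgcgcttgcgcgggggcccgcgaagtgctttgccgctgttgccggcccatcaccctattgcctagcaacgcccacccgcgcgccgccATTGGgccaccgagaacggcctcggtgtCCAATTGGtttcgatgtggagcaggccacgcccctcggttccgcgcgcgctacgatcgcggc
Acly: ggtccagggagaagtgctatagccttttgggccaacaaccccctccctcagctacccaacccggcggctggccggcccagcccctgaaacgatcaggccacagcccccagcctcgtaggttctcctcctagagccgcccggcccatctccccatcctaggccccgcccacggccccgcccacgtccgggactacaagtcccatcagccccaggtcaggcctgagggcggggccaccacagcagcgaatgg
Thrsp: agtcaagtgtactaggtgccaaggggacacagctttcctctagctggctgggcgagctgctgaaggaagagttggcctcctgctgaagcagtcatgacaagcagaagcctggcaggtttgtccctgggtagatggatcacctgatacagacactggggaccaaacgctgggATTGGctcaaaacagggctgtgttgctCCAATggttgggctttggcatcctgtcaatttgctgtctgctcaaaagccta
Hmgcs1: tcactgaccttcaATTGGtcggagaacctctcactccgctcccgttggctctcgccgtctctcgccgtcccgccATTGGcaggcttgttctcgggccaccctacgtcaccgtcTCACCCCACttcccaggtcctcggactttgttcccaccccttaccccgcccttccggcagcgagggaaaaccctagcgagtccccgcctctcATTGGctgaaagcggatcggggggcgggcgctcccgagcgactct

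CCAAT was found 3 times in the Fasn and Hmgcs1 windows, 2 times in the Thrsp window and not in the Acly window. In Fasn, 2 of the 3 matches overlap, since CCAATTGG reads as CCAAT on both strands. TCACNCCAC was found once, in Hmgcs1. Over all 32851 promoters of the same length, 33.8% held CCAAT, 1.05% TCACNCCAC and 6.02% the E-box CACGTG, which the 4 windows lacked. Promoters of 27 members could be matched, with 37 windows, of which 45.9% held CCAAT, 5.41% TCACNCCAC and 13.5% CACGTG. A match is a run of letters and says nothing of whether a factor binds there.

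The knockout table allows a comparison of each immunoprecipitate with total RNA of its own genotype, which asks which RNAs the antibody recovers. Markers of other kinds moved in the same contrast. The 3 listed general fat markers summed to 16302 to 18874 CPM in total RNA and 28331 to 35164 CPM in the immunoprecipitates of both genotypes. Of these, 1 passed as higher in the wild type (10.0% of all genes) and 1 in the knockout (10.6%), and 1 lay below 0 in the knockout. Of the 7 listed skeletal muscle markers, 4 had ratios below 0 in the wild type and 6 in the knockout. Their median log2 ratios were -0.85 and -0.67, and 0 passed. Of the 5 listed brown fat markers, 3 had ratios below 0 in each genotype. In the wild type 1 of the 5 passed as lower (12.4% of all genes), and in the knockout 2 (15.7%). The 2 listed red blood cell genes, which had identical ratios, summed to 1500 to 2330 CPM in total RNA and 623 to 1353 CPM in the immunoprecipitates, and both passed as lower in the knockout. Their part in the members' values was not tested. In wild-type tissue 1 member rose. Acacb, the acetyl-CoA carboxylase of the outer mitochondrial membrane, read 1453 and 1484 CPM in total RNA and 1977 and 2089 CPM in the immunoprecipitate, which is 1469 ± 22.3 against 2033 ± 79.1 (mean ± SD, n = 2 each). The groups did not overlap, and the log2 ratio was 0.47 ± 0.10 (SE; adjusted p = 0.0150, edgeR's quasi-likelihood test with Benjamini-Hochberg adjustment). That made 1 of 9 members called, against 22.5% of all 1189 genes and 10.0% in the upward direction. Acacb's call was lost without library 16 (adjusted p = 0.102), 17 (0.0889) or 22 (0.0858), while its log2 ratio stayed between 0.43 and 0.51.

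The same gene rose in the Imp2-/- tissue, together with 2 others. Acacb read 1970 and 1954 CPM in knockout total RNA and 2650 and 2942 CPM in the knockout immunoprecipitate (1962 ± 11.4 against 2796 ± 207, mean ± SD, n = 2 each). Its log2 ratio was 0.51 ± 0.10 (adjusted p = 0.00891, edgeR's quasi-likelihood test with Benjamini-Hochberg adjustment). Both immunoprecipitates of either genotype thus lay above their own total RNA for this gene. Agpat6, the glycerol-3-phosphate acyltransferase that RefSeq calls Gpat4, read 1711 and 1745 CPM in knockout total RNA and 2253 and 2419 CPM in the immunoprecipitate, a log2 ratio of 0.43 ± 0.10 (adjusted p = 0.0135, same test). Acat2, the cytosolic thiolase that starts sterol synthesis, read 804 and 838 CPM in knockout total RNA and 1137 and 1184 CPM in the immunoprecipitate, a log2 ratio of 0.50 ± 0.11 (adjusted p = 0.0123, same test). None of the 3 overlapped between the groups. They were 3 of 9 members, against 26.3% of all genes called and 10.6% called higher. Agpat6 and Acat2 lost the call without library 18 (adjusted p = 0.0568 and 0.0641) or 24 (0.0745 and 0.0666), and Acacb without 24 (0.0601).

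In the wild type the corresponding values of Agpat6 and Acat2 were smaller. Agpat6 read 1719 and 1751 CPM in total RNA and 1925 and 1917 CPM in the immunoprecipitate, with a log2 ratio of 0.15 ± 0.10 (adjusted p = 0.297). Acat2 read 724 and 811 CPM in total RNA and 843 and 923 CPM in the immunoprecipitate, with a log2 ratio of 0.20 ± 0.11 (adjusted p = 0.205). Neither gene overlapped between the wild-type groups, but a share of 66.0% of all genes showed no overlap there, and 66.7% in the knockout. By that measure 5 of 9 members in the wild type were separate, Acacb, Agpat6 and Acat2 higher (32.2% of all genes) and Fasn and Hmgcs1 lower (33.8%). In the knockout 4 of 9 were separate, Acacb, Agpat6, Acat2 and Dgat1, all higher (32.7% of all genes, with 34.0% lower). Scaling mattered for the centre of this comparison: upper-quartile scaling moved the median log2 ratio of all genes to 0.15 in the wild type and 0.16 in the knockout, from 0.01 and -0.01. The split of all calls went from 119 higher and 148 lower to 214 and 95 in the wild type, and from 126 and 187 to 273 and 130 in the knockout. Library size alone gave 158 and 119, and 246 and 145. Acat2 passed in the wild type with upper-quartile scaling (log2 ratio 0.34, adjusted p = 0.0411).

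Acly, Fasn and Hmgcs1 had negative ratios with wide errors in both genotypes, unlike Acacb and Acat2, whose ratios were positive. The fit was unpaired, because the labels do not tie an immunoprecipitate to a total RNA library, so the differences between libraries of a group given above enter these errors. Acly had log2 ratios of -0.71 ± 0.44 in the wild type and -0.72 ± 0.44 in the knockout, and Fasn -0.38 ± 0.44 and -0.30 ± 0.44. Neither passed the test. Acly in the wild type ran from -0.31 without library 16 to -1.20 without library 21, and in the knockout from -0.15 without library 19 to -1.28 without library 24. The value for Fasn in the knockout became 0.26 without library 19, 0.18 without library 23 and -0.91 without library 24. Hmgcs1 read 595 and 647 CPM in wild-type total RNA and 401 and 393 CPM in the immunoprecipitate, a log2 ratio of -0.64 ± 0.31 (adjusted p = 0.165). Its wild-type groups did not overlap, and it passed when the 4 wild-type libraries were fitted alone (adjusted p = 0.0260) or when library 19 was left out (0.0487). In the knockout Hmgcs1 had a log2 ratio of -0.46 ± 0.31, which became 0.16 without library 19.

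The other 3 members had ratios within 1 SE of 0 or close to it. Thrsp had log2 ratios of 0.06 ± 0.26 and 0.13 ± 0.26, and Mlxipl -0.03 ± 0.17 and 0.09 ± 0.16, in the wild type and the knockout. Without 1 library the knockout value of Thrsp ran from -0.13 to 0.43 and that of Mlxipl from -0.05 to 0.29. Dgat1, which joins the last acyl chain to diacylglycerol, read 780 and 1109 CPM in wild-type total RNA, 915 and 1259 CPM in the wild-type immunoprecipitate, 996 and 793 CPM in knockout total RNA and 1054 and 1009 CPM in the knockout immunoprecipitate. Its log2 ratios were 0.20 ± 0.21 and 0.21 ± 0.21, and without 1 library they ran from -0.04 to 0.48 in the wild type and from 0.05 to 0.41 in the knockout.

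Of the other pathway genes, few passed in these comparisons. Among 7 listed genes of carbon and NADPH supply and fatty acid synthesis, Hsd17b12, a reductase of fatty acid elongation, was lower in the wild-type immunoprecipitate: it read 770 and 701 CPM in total RNA and 488 and 404 CPM in the immunoprecipitate (log2 ratio -0.72 ± 0.19, adjusted p = 0.0295). Among 5 listed regulators, Nr1h3, the sterol-sensing receptor LXR alpha, was lower in the knockout immunoprecipitate, at 548 and 533 CPM against 776 and 701 CPM (log2 ratio -0.45 ± 0.12, adjusted p = 0.0288). None of the 3 listed sterol genes and 2 listed genes of glycerolipid assembly passed in either genotype.

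**Figure D2:**
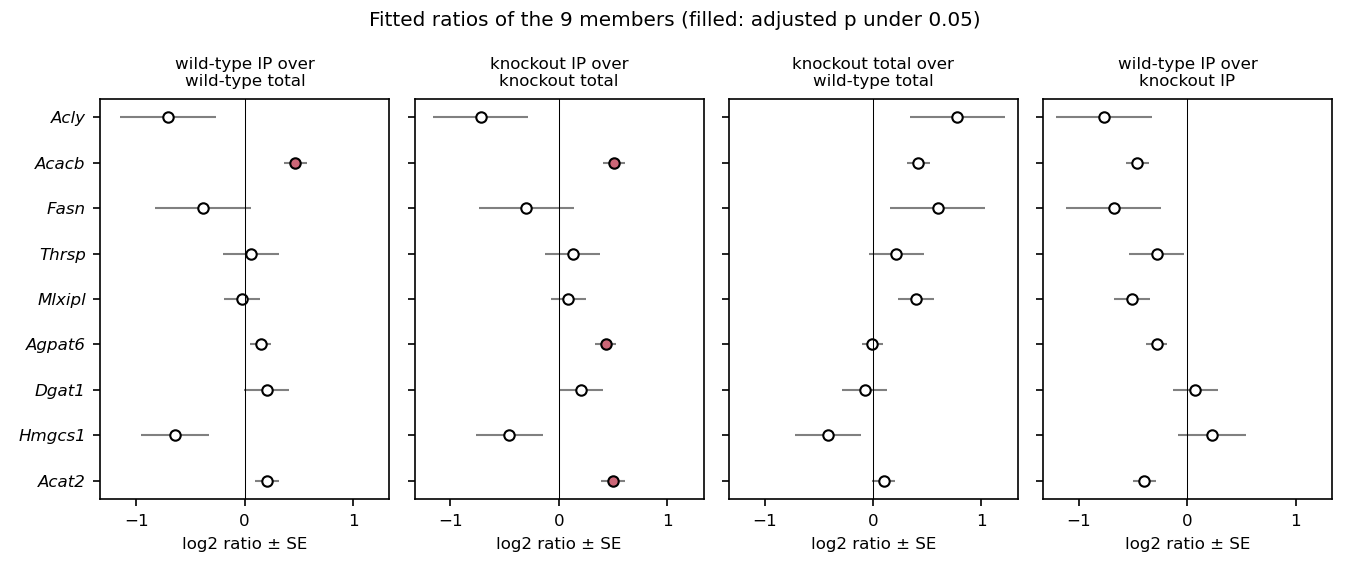
Fitted log2 ratios ± SE of the 9 members in 4 comparisons of the knockout table (filled points: adjusted p under 0.05 by edgeR's quasi-likelihood test). Acacb is filled in both genotypes, Agpat6 and Acat2 in the knockout alone, and the errors of Acly and Fasn are the widest.

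Whether recovery depended on IMP2 was tested as the difference between the wild-type and the knockout ratio. No member passed, and no gene of the 1189 did (0% called by edgeR, DESeq2 and limma-voom, with 29 genes and no member at an unadjusted p under 0.05 in edgeR). The differences of the members ran from -0.30 ± 0.15 (Acat2) and -0.29 ± 0.14 (Agpat6) to 0.01 ± 0.62 (Acly), with a median of -0.08 against -0.00 for all genes. For Acacb the difference was -0.04 ± 0.15, for Fasn -0.08 ± 0.62, for Hmgcs1 -0.19 ± 0.44, for Mlxipl -0.11 ± 0.23, for Thrsp -0.07 ± 0.36 and for Dgat1 -0.00 ± 0.29. In 8 of 9 members the value was below 0, and in 9 of 9 under upper-quartile scaling or library size alone, but the signs depended on single libraries. Without library 18 or library 24 only 4 of 9 were below 0, with medians of 0.03 and 0.02. Leaving out 1 library took the difference from -0.65 to 0.54 for Fasn, from -0.56 to 0.58 for Acly and from -0.80 to 0.21 for Hmgcs1. Thrsp, Dgat1, Mlxipl and Acacb also had both signs, while Acat2 (-0.38 to -0.21) and Agpat6 (-0.38 to -0.25) stayed below 0. The knockout table holds no gene with a difference below -0.30, so Acat2 and Agpat6 sit at the lower end of what the table lists. No label or file header says whether listing depended on this difference. The members' signs, the median of all genes and the share called therefore hold for the listed genes and may be conditioned by the listing.

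Total RNA of the knockout was compared with that of the wild type to see whether the members' own levels changed. By edgeR no member and no gene passed (0% of 1189). At an unadjusted p under 0.05 there were 132 genes, 2 of them members. DESeq2 called 35 genes and limma-voom 0. The member called by DESeq2 was Acacb: its knockout libraries read 1970 and 1954 CPM against 1453 and 1484 CPM in the wild type, with a log2 ratio of 0.42 ± 0.10 (adjusted p = 0.266 by edgeR, 0.0151 by DESeq2). Leaving out any 1 library kept its ratio between 0.40 and 0.43. Mlxipl read 357 and 338 CPM in the wild type and 398 and 516 CPM in the knockout (log2 ratio 0.39 ± 0.16, adjusted p = 0.413), and its ratio was 0.20 without library 19. These were the 2 members whose groups did not overlap, against 43.1% of all genes and 21.4% in the upward direction.

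For Fasn and Acly the genotype difference depended on library 19. The log2 ratio of knockout over wild-type total RNA was 0.60 ± 0.44 for Fasn (adjusted p = 0.608) and 0.78 ± 0.44 for Acly (adjusted p = 0.555). Without library 19 they were 0.03 and 0.21. Thrsp had 0.21 ± 0.26, and -0.08 without library 19. Hmgcs1 had -0.41 ± 0.31, and 0.01 without library 18. Agpat6 (-0.01 ± 0.10), Acat2 (0.10 ± 0.11) and Dgat1 (-0.08 ± 0.21) were close to 0. The summed muscle markers were 2444 and 9509 CPM in wild-type and 522 and 2228 CPM in knockout total RNA, and their part in these values was not tested. In whole tissue, fewer cells of a type and less RNA per cell cannot be told apart.

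**Figure D3:**
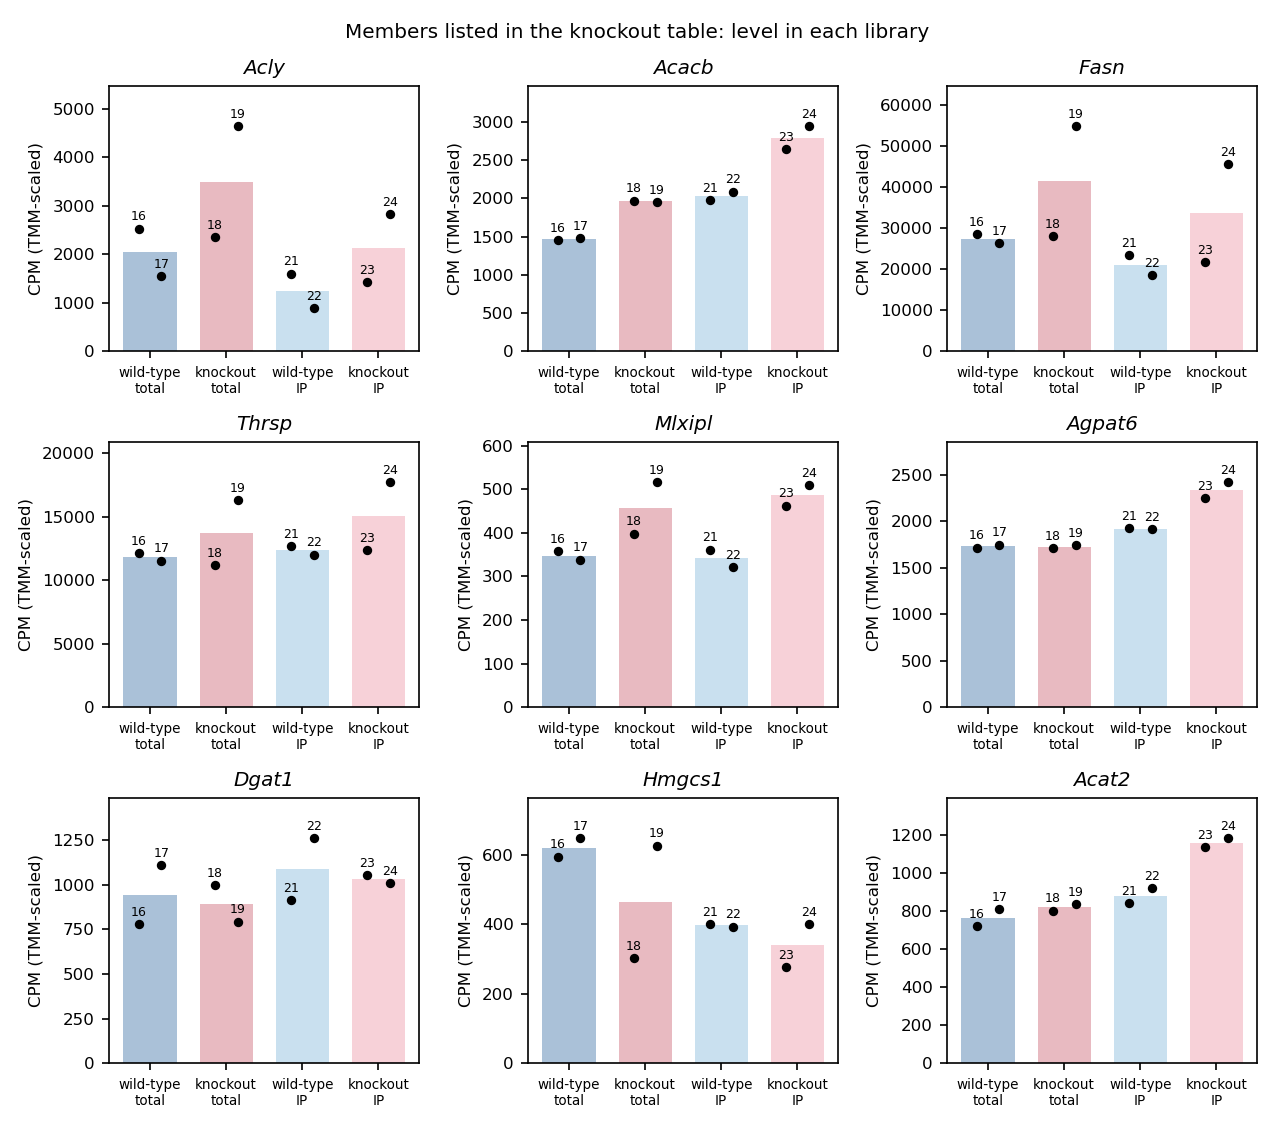
CPM of the 9 members in each library of the knockout table (points, numbered by library) with the mean of each group (bars), on linear axes from 0. Libraries 19 and 24 sit well above libraries 18 and 23 for Acly and Fasn, while the points of Acacb, Agpat6 and Acat2 lie close together within groups.

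The immunoprecipitates of both genotypes were also compared directly. By edgeR 0 of 9 members and 0% of all genes passed. At an unadjusted p under 0.05 there were 210 genes, 4 of them members. DESeq2 called 94 genes and limma-voom 0. DESeq2's calls included Acacb (log2 ratio of wild type over knockout -0.47, adjusted p = 0.00344), Mlxipl (-0.51, 0.0285) and Acat2 (-0.40, 0.0219). By edgeR the log2 ratio was -0.46 ± 0.10 for Acacb (adjusted p = 0.129), -0.51 ± 0.17 for Mlxipl (0.185), -0.39 ± 0.11 for Acat2 (0.158) and -0.28 ± 0.10 for Agpat6 (0.208). These 4 of 9 members were lower in every wild-type immunoprecipitate than in every knockout one, against 24.3% of all genes in that direction and 51.2% in either. Mlxipl read 361 and 321 CPM in the wild-type and 463 and 510 CPM in the knockout immunoprecipitates. Fasn (-0.68 ± 0.44) and Acly (-0.77 ± 0.44) were -0.06 and -0.19 without library 24, Thrsp (-0.28 ± 0.26) was -0.01, and Hmgcs1 (0.23 ± 0.31) and Dgat1 (0.07 ± 0.21) were above 0 but changed sign without library 23 (-0.05) and library 22 (-0.17). Muscle markers summed to 1281 and 5955 CPM in the wild-type and 283 and 1140 CPM in the knockout immunoprecipitates.

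None of the other listed pathway genes passed in either genotype comparison. In total RNA all 7 genes of carbon and NADPH supply and fatty acid synthesis had knockout ratios above 0. They ran from 0.17 (Mecr, of mitochondrial fatty acid synthesis) to 0.63 (Slc25a1), with a median of 0.30 against 0.00 for all genes. Without library 19, 4 of the 7 were above 0 (median 0.25), and library 18 read below both wild-type libraries for Me1 and Pgd. In the immunoprecipitates 6 of the 7 had wild-type over knockout ratios below 0, with a median of -0.43 against 0.01 for all genes. Without library 24, 3 of the 7 were below 0 (median 0.01). The medians of the 3 sterol genes were -0.14 and -0.09, those of the 2 glycerolipid genes 0.14 and -0.31, and those of the 5 regulators 0.06 and -0.18, for total RNA and immunoprecipitates in that order.

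The IgG table adds the enzymes that the knockout table does not list, and has 1 IMP2 and 1 IgG immunoprecipitate against 2 total RNA libraries. Only the total RNA pair gives a spread there, with 1 residual degree of freedom, and the single immunoprecipitates are assumed to vary in the same way. The errors rest largely on a spread shared over genes, and not on each gene's own pair. Dgat2 read 356 and 930 CPM in total RNA, and Agpat3 301 and 325 CPM. Their log2 ratios of IMP2 over total RNA nevertheless had standard errors of 0.400 and 0.405.

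At the start of the pathway the levels of total RNA and immunoprecipitates overlapped for most members. Acly read 702 and 1596 CPM in total RNA (libraries 15 and 20), 881 CPM in the IMP2 and 861 CPM in the IgG immunoprecipitate. Fasn read 16588 and 27018 CPM in total RNA, 23790 CPM with IMP2 and 25339 CPM with IgG. Acss2, which makes acetyl-CoA from acetate, stayed between 172 and 259 CPM in the 4 libraries. All 3 genes had their immunoprecipitates inside the total RNA range. Acacb read 1462 and 1016 CPM in total RNA, 1552 CPM with IMP2 and 1698 CPM with IgG, so the 2 immunoprecipitates lay above both total RNA libraries. Acaca, the cytosolic carboxylase, read 1190 and 1503 CPM in total RNA, 1722 CPM with IMP2 and 3001 CPM with IgG. Its log2 ratio of IgG over total RNA was 1.15 ± 0.40 (adjusted p = 0.104, edgeR's quasi-likelihood test with Benjamini-Hochberg adjustment).

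Elovl6 was low in library 25, the only IMP2 immunoprecipitate in which it was measured here. Elovl6, which extends palmitate to stearate, read 4457 and 5354 CPM in total RNA, 1192 CPM in the IMP2 immunoprecipitate and 4614 CPM in the IgG immunoprecipitate. Library 25 alone was low, and the IgG library lay between the total RNA libraries. The log2 ratio of IMP2 over total RNA was -2.05 ± 0.47 (adjusted p = 0.00390, edgeR's quasi-likelihood test), with adjusted p between 0.000964 and 0.0104 over 8 other settings of scaling, filter, tool and transcript choice. Without library 15 it was -2.16 and without library 20 it was -1.91, with no test possible. Elovl6 and Agpat2 were the 2 of 32 members called, both lower, against 0.904% of 8965 genes tested (0.859% lower and 0.0446% higher). Against IgG the log2 ratio of Elovl6 was -1.95 ± 0.51 (adjusted p = 0.0480), the only member under the threshold there, against 0.234% of genes (0.178% lower and 0.0558% higher). Neither antibody has a replicate in that comparison. The spread comes from the total RNA pair and is largely shared over genes. The comparison therefore sets library 25 against library 26 and does not test the antibodies. The adjusted p was above the threshold in 5 of 8 other settings, up to 0.178. The counts behind it were 1516 in library 25 and 18892 in library 26, a ratio of 0.258 (95% interval 0.245 to 0.272, counting error only). Elovl6 was not listed in the knockout table, so no second IMP2 immunoprecipitate of it was analysed.

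The desaturases Scd1 and Scd2 had lower readings in both immunoprecipitates but did not pass. Scd1, the main stearoyl-CoA desaturase of fat, read 61136 and 49628 CPM in total RNA, 25783 CPM with IMP2 and 26664 CPM with IgG. Scd2, its paralogue, read 136 and 108.8 CPM in total RNA, 60.5 CPM with IMP2 and 64.7 CPM with IgG. For both genes each immunoprecipitate lay below each total RNA library. The log2 ratios over total RNA were -1.11 ± 0.48 with IMP2 and -1.06 ± 0.48 with IgG for Scd1 (adjusted p = 0.461 and 0.275), and -1.01 ± 0.44 and -0.92 ± 0.42 for Scd2 (0.467 and 0.286). IMP2 over IgG gave -0.05 ± 0.53 for Scd1 and -0.10 ± 0.49 for Scd2. Reads of these 2 paralogues may be split by the counting. Elovl5 lay between 46.7 and 66.8 CPM and Elovl1 between 19.0 and 28.3 CPM, and the desaturases Fads1 and Fads3 stayed under 14 CPM.

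In triglyceride assembly the call for Agpat2 rested on 1 total RNA library. Agpat2, a 1-acylglycerol-3-phosphate acyltransferase whose loss causes lipodystrophy, read 36.5 CPM in library 15, 159 CPM in library 20, 25.2 CPM with IMP2 and 36.1 CPM with IgG. Library 20 stood 4.36-fold above library 15, and the other 3 libraries lay between 25.2 and 36.5 CPM. The log2 ratio of IMP2 over total RNA was -1.99 ± 0.50 (adjusted p = 0.0114 by edgeR, 0.180 by limma-voom, 0.99988 by DESeq2), and -0.55 without library 20. That of IgG over total RNA was -1.47 ± 0.45 (adjusted p = 0.0509), and -0.01 without library 20. Dgat2, which like Dgat1 completes triglycerides, also differed between the total RNA libraries, at 356 and 930 CPM, with 738 CPM for IMP2 and 751 CPM for IgG. Agpat1 read 639 and 427 CPM in total RNA, 442 CPM with IMP2 and 315 CPM with IgG, and Agpat3 stayed between 240 and 325 CPM. Agpat6 read 942 and 846 CPM in total RNA, 1131 CPM with IMP2 and 1183 CPM with IgG, again above both total RNA libraries. Dgat1 read 802 and 619 CPM in total RNA, 650 CPM with IMP2 and 534 CPM with IgG. The phosphatase gene Lpin1 lay between 131 and 169 CPM and Gpam, the mitochondrial glycerol-3-phosphate acyltransferase, between 21.5 and 39.3 CPM. Agpat9 and Lpin2 had 3 to 26 counts per library, too few to show moderate differences.

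**Figure D4:**
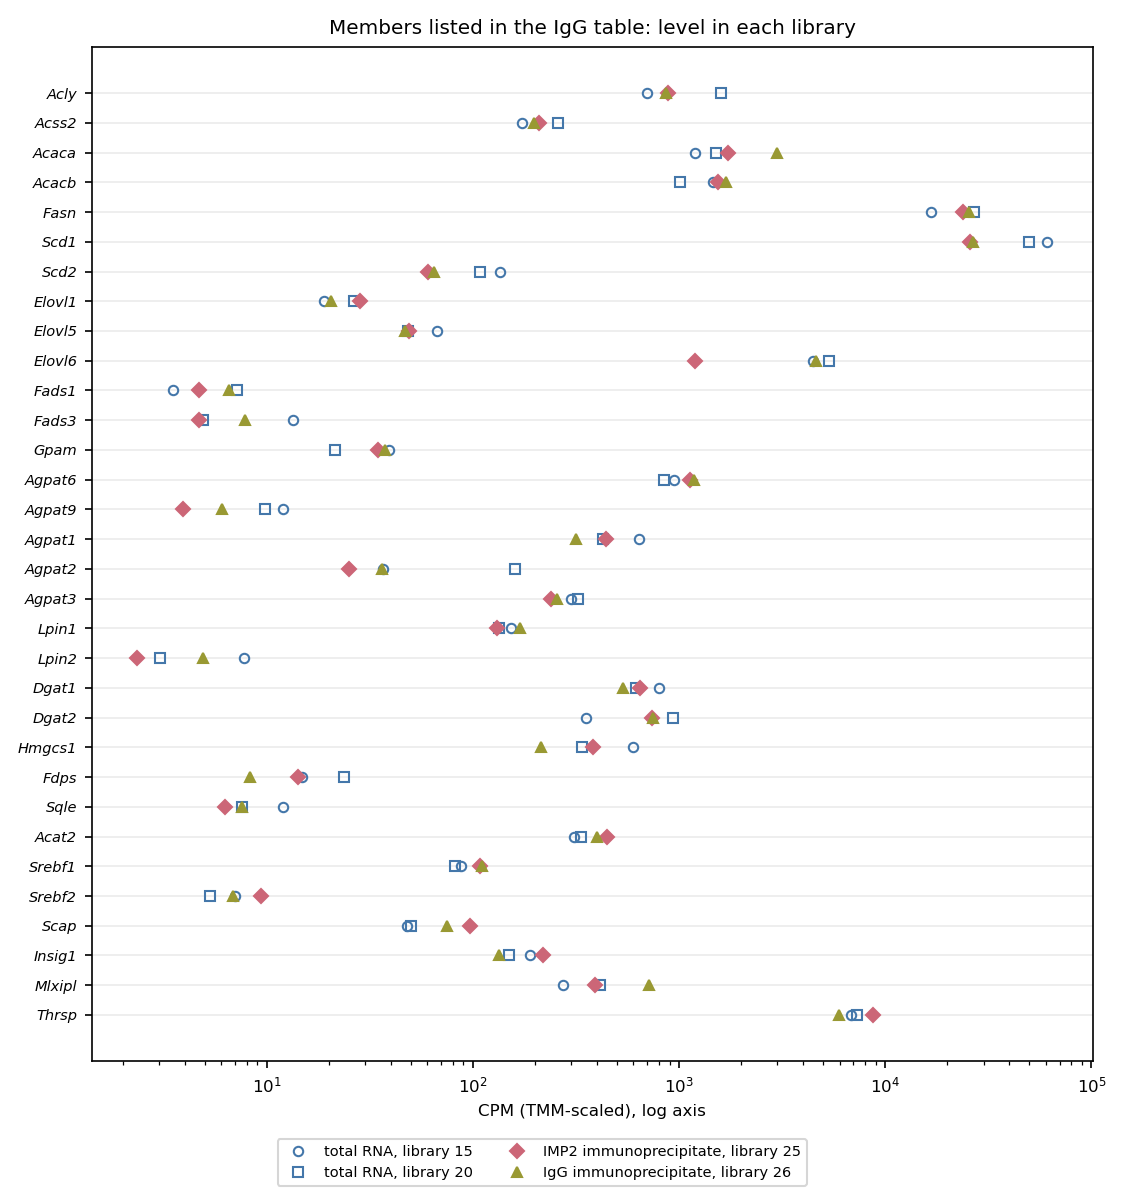
CPM of the 32 members in the 4 libraries of the IgG table, on a log axis (open: total RNA, diamond: IMP2 immunoprecipitate, triangle: IgG immunoprecipitate). The IMP2 point of Elovl6 lies far left of its other 3 points, both immunoprecipitate points of Scd1 and Scd2 lie left of total RNA, and the total RNA points of Agpat2 and Dgat2 are far apart.

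Sterol genes did not pass. Hmgcs1 read 601 and 337 CPM in total RNA, 381 CPM with IMP2 and 215 CPM with IgG, the lowest of the 4. Its log2 ratio of IgG over total RNA was -1.13 ± 0.42 (adjusted p = 0.139, edgeR's quasi-likelihood test). Acat2 read 311 and 333 CPM in total RNA, 448 CPM with IMP2 and 400 CPM with IgG, so both immunoprecipitates were above both total RNA libraries. Fdps, which makes farnesyl diphosphate, had 18 to 63 counts and Sqle, squalene epoxidase, 8 to 31 counts per library.

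Among the regulators, Mlxipl was high in the single IgG library. In the IgG table Mlxipl read 273 and 413 CPM in total RNA, 390 CPM with IMP2 and 718 CPM with IgG. The IgG library was the highest, with a log2 ratio over total RNA of 1.06 ± 0.39 (adjusted p = 0.128). When the IgG library was set against all 3 wild-type IMP2 immunoprecipitates in a fit of both tables, Mlxipl had a log2 ratio of IMP2 over IgG of -1.19 ± 0.24 (adjusted p = 0.0361, edgeR's quasi-likelihood test). It was the only member of 9 called, against 1.6% of genes (1.26% lower). The call was lost without library 16, 17, 22, 23, 24 or 25, with adjusted p from 0.0582 to 0.200, and the log2 ratio stayed between -1.16 and -1.20 in these fits. With 1 IgG library, whose spread is assumed from the other groups, the comparison cannot tell that library from the antibody, and DESeq2 called 113 genes there against 19 by edgeR.

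The SREBP machinery showed no call. Srebf1 read 87.8 and 82.0 CPM in total RNA, 107.7 CPM with IMP2 and 110 CPM with IgG. Scap read 47.8 and 50.3 CPM in total RNA, 96.7 CPM with IMP2 and 74.98 CPM with IgG (log2 ratio of IMP2 over total RNA 0.97 ± 0.42, adjusted p = 0.457). Insig1 read 189 and 149 CPM in total RNA, 219 CPM with IMP2 and 134 CPM with IgG. For Srebf1 and Scap both immunoprecipitates lay above total RNA, while for Insig1 only the IMP2 library did. Srebf2 had 10 to 28 counts per library. Thrsp read 6834 and 7313 CPM in total RNA, 8728 CPM with IMP2 and 5990 CPM with IgG, outside the total RNA range on opposite sides.

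With IgG over total RNA, 0 of 32 members passed in edgeR, DESeq2 and limma-voom, and 2.01% of all genes were called by edgeR. At an unadjusted p under 0.05 in edgeR there were 7 of the 32 members and 1292 of the 8965 genes. The members' median log2 ratios were -0.14 with IMP2 and -0.14 with IgG, against -0.03 and -0.01 for all genes, and library size alone moved the medians with IgG to 0.03 and 0.16. The split of all calls with IgG went from 43 higher and 137 lower to 101 and 95 with library size alone and to 59 and 111 with upper-quartile scaling. Muscle markers, all 13 listed, summed to 16505 and 9275 CPM in libraries 15 and 20, 8540 CPM in 25 and 6243 CPM in 26.

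Outside the members, 1 pathway gene passed in these libraries. Fitm1, which helps to package fat into droplets and is also known from skeletal muscle, read 35.8 and 17.4 CPM in total RNA, 7.08 CPM with IMP2 and 2.44 CPM with IgG (log2 ratio of IgG over total RNA -3.39 ± 0.70, adjusted p = 0.000822). It was 1 of 11 genes of glycerolipid assembly, and the part of muscle RNA in this value was not tested. None of the 20 sterol genes, 18 genes of carbon and NADPH supply and fatty acid synthesis and 23 regulators passed in any of the 3 comparisons of the IgG table. The sterol list's median log2 ratio was 0.00 with IMP2 over total RNA, -0.51 with IgG over total RNA and 0.45 with IMP2 over IgG. The medians of all genes were -0.03, -0.01 and -0.01 in that order, and library size alone moved the last to -0.19. Both sterol values with IgG rest on library 26, the only IgG library, so they are not separate results.

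The 9 members of both tables were finally fitted over all 12 libraries with a term for the table. In wild-type IMP2 immunoprecipitates over total RNA 0 of 9 passed by edgeR, against 28.5% of all genes. At an unadjusted p under 0.05 in edgeR there were 2 of the 9 members and 510 of the 1189 genes. Acacb had a log2 ratio of 0.36 ± 0.14 (adjusted p = 0.0753) and Acat2 0.26 ± 0.11 (0.0902). Both passed with upper-quartile scaling, with library size alone and with DESeq2, and Acacb also without library 15 (adjusted p = 0.00398). In DESeq2 Hmgcs1 passed as well, in the other direction (log2 ratio -0.56, adjusted p = 0.0425). With upper-quartile scaling the median of all genes moved to 0.13 and the calls from 167 higher and 172 lower to 278 and 116, and with library size alone to 230 and 127. Of the other listed pathway genes, Hsd17b12 was lower (-0.79 ± 0.15, adjusted p = 0.00308) and Mecr was higher (0.41 ± 0.11, adjusted p = 0.0180), where Hsd17b12 read 375 and 383 CPM in libraries 15 and 20 and 221 CPM in library 25, and Mecr 190 and 208 CPM and 277 CPM.

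Several members overlap another annotated gene, among them Acaca (Tada2a), Srebf1 (Rai1), Elovl1 (Cdc20), Agpat1 (Egfl8), Acss2 (Acss2os), Elovl6 (Gm35986) and Acat2 (Gm20591). The library kit named in the labels does not mark strand, so reads of such neighbours cannot be told apart where they overlap.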

How the data were processed

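Brown fat RNA from 12 libraries was measured in 2 tables. The authors deposited counts per RefSeq transcript, which were used as deposited. Per the submitters' processing notes, TopHat2 2.0.8, Cufflinks 2.1.1 and the mm10 build were used. How reads were counted, and by which rule transcripts were listed, is not given in the sources used here. Libraries were grouped by their labels.

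The tables hold 1579 and 12840 transcripts, of which 117 and 835 carry no symbol. Of these, 114 and 813 were named by their accession, and the 3 and 22 unnamed ones, with 8.65% to 29.2% and 7.39% to 15.8% of the counts, stayed out of library sizes and tests. The transcript with the highest summed count stood for its symbol. Counts were fitted in edgeR 4.0.16 (R 4.3.3) with TMM scaling, filterByExpr and the quasi-likelihood test over all groups of a table, with Benjamini-Hochberg adjustment over all 1189 or 8965 genes tested and a threshold of 0.05. All 32 listed members passed the filter. The residual degrees of freedom were 4, 1 and 6 in the knockout, IgG and joint fits. The joint fit used the 1189 genes of both tables. The script was tested on simulated data with 200 changed genes. Alternatives were RLE, upper-quartile and library-size scaling, DESeq2 1.42.0, limma-voom (limma 3.58.1), no filter, a filter at a mean of 5 CPM, summed transcripts, the groups compared alone and leaving out each library.

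Members and pathway lists (sterol synthesis and SREBP pathway, carbon and NADPH supply and fatty acid synthesis, glycerolipid assembly, regulators) and marker lists were chosen with earlier results of these data known. Every listed member is named. CPM in every library are given for members that passed, for the 3 largest and 3 smallest ratios of each knockout table comparison and for Acly, Acaca, Fasn, Scd1, Srebf1 and Insig1. Of each other list the genes that passed are named, and at most 2 with the largest and 2 with the smallest ratio. Genes named for their ratio between libraries of a group were chosen after their values were seen. Promoters came from RefSeq's GRCm38.p6 table. Poisson intervals of ratios cover counting error only.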

Additional observations from a re-analysis of the deposited data

Results flagged for a closer look

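With the 12 brown fat libraries scaled together, 1 library stood far from the other 3 of the wild-type total RNA group for 2 of the 9 members in both tables. Hmgcs1 read 1080 CPM in library 15 and 577, 624 and 614 CPM in libraries 16, 17 and 20, and the gap above the nearest library took 0.906 of the group's range. Agpat6 read 1539 CPM in library 20 and 1668, 1690 and 1692 CPM in libraries 16, 17 and 15, and the gap below took 0.839 of the range. Both shares are above Dixon's 95% critical value for 4 samples, which chance passes in about 1 in 20 groups. Libraries 15 and 20 come from the IgG table and 16 and 17 from the knockout table.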

How the results depend on the processing

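Over the members' log2 ratios, 2112 values were recomputed with another setting: 21 lost and 19 gained a call, 26 that changed sign uncalled or had no test moved by more than their standard error, and the other 2046 did none of these. No called ratio changed sign, and 83 ratios called in neither fit did. The counts of members and genes called changed as follows.

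For wild-type immunoprecipitate over total RNA, upper-quartile scaling called 2 members higher and the groups compared alone called 1 lower; leaving out a library gave 0 to 1 higher, 0 to 1 lower and 93 to 261 genes. For the knockout, leaving out a library gave 0 to 3 members and 135 to 323 genes. Between immunoprecipitates, DESeq2 called 3 members lower and 94 genes, and leaving out a library gave 0 to 1 genes. In total RNA of both genotypes, DESeq2 called 1 member higher and 35 genes, and the groups compared alone 1 gene.

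In the IgG table, IMP2 over total RNA gave 1 member lower with DESeq2 and with limma-voom, and 22 and 47 genes against 81. IgG over total RNA gave 1 member lower (Agpat2) with RLE scaling, no filter, a mean of at least 5 CPM and without library 25, and DESeq2 called 43 genes against 180. IMP2 over IgG gave 0 members with RLE scaling, no filter, a mean of at least 5 CPM, DESeq2 and summed transcripts, 32 genes with library size alone and 4 with DESeq2, against 21. In the joint fit, IMP2 over IgG gave 113 genes with DESeq2 against 19, and 0 to 1 members and 0 to 50 genes without a library. Immunoprecipitate over total RNA gave 2 members higher with upper-quartile scaling, library size alone and DESeq2, 1 lower with DESeq2, and 0 to 1 members and 190 to 414 genes without a library.

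No paired analysis was run, because the labels give immunoprecipitate and total RNA libraries no shared replicate number. All errors and leave-one-out ranges are therefore those of an unpaired fit. If immunoprecipitates share tissue with total RNA libraries, these errors include differences between tissues that a paired fit would remove. They then do not measure how far recovery itself varied, for Acly and Fasn above all. Leaving out library 25 or 26 leaves no contrast for that antibody, and leaving out 15 or 20 leaves the IgG table no spread, so those values carry no test. With 2 libraries a group, or 1, differences as wide as those of Fasn and Acly within a group could not be told from a genotype effect.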
